A study of Mus musculus with 6 samples.

Results

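Nuclear genes of the mitochondrial respiratory chain were followed in mouse embryo skin labelled knockout or control for Tie1, an endothelial receptor tyrosine kinase gene. They were chosen by symbol as every gene named Nduf followed by a, b, c, s or v and a number, Sdha to Sdhd, or beginning with Uqcr, Cox4 to Cox8 or Atp5, which gave 85 of the 19131 genes in the tables. By these names 39 belong to complex I, 4 to complex II, 8 to complex III, 17 to complex IV and 17 to complex V. Of the 85 genes, 83 reached 10 or more counts in 3 or more libraries. Cox7b2, a testis form, had no read in any library, and Ndufa11b, a copy of Ndufa11, had between 0 and 3.13 estimated reads per library. The name rule also covers the genes of the mitochondrial genome, but 0 of them matched, so the mitochondrially encoded subunits were not analysed here. The groups were skin of Tie1 knockout embryos (sample names with Tie1ECDKO, 3 libraries) and skin of control embryos (Tie1ECDWT, 3 libraries), all at embryonic day 17.5 and on a C57BL/6N background, with mRNA selected by oligo(dT). The labels do not say what ECD stands for, which cells lost Tie1 or by which Cre or promoter, which body region the skin came from, or whether each library is a different embryo, so p-values measure the spread between these samples, which may be technical.

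The respiratory chain moves electrons from NADH through complex I, or from succinate through complex II, to ubiquinone, then through complex III and cytochrome c to complex IV, which reduces oxygen to water. Complexes I, III and IV pump protons out of the mitochondrial matrix, and complex V, the ATP synthase, uses the returning protons to make ATP. Most subunits are made in the same way in every tissue, but several complex IV subunits and the complex I relative Ndufa4l2 have forms restricted to muscle, brown fat, testis or the mural cells of small vessels. Ndufa4, although named for complex I, is now regarded as a subunit of complex IV.

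Library depth ranged from 19826856 to 20591164 estimated reads, and the chosen genes took 0.878 to 0.979% of them. Tie1 was at 4.32, 2.63 and 2.26 CPM (read counts scaled to library size by the TMM method) in the knockout libraries, against 58.53, 50.64 and 59.95 CPM in the control libraries, as labelled. Skin-defining genes (8 of 8 listed, Krt5, Krt14, Krt10, Krt1, Lor, Col1a1, Col3a1 and Dcn) were present in every library, with summed levels of 49730 to 57050 CPM in the knockout and 48010 to 59290 CPM in the control. No library was a copy of another: counts of any pair differed by 9.95 to 51.3 times the sampling variance, and knockout 1 and control 1 stood farthest from the rest.

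By edgeR and by limma-voom no respiratory chain gene was called changed between knockout and control skin, while DESeq2 called Cox4i2 and Ndufa4l2 higher. The edgeR quasi-likelihood test called 0 of the 83 at an adjusted p under 0.05, while it called 0.160% of all 15035 genes tested (0.0865% higher and 0.0732% lower). At an unadjusted p under 0.05, there were 8 of the 83, which is 9.64% beside 7.42% over all genes. Of these, 2 were higher (2.41% beside 4.08%) and 6 lower (7.23% beside 3.35%). DESeq2 called 2 (2.41% beside 1.40% of all genes), both of them higher (Cox4i2 and Ndufa4l2, beside 0.811% of all genes) and 0 lower (beside 0.585%). With limma-voom 0 were called, beside 0.0998% of all genes (0.0732% higher and 0.0266% lower). Fold changes of the group were small: 68 of the 83 genes had a log2 fold change below 0, beside 48.8% of all genes, with a median of −0.060 beside 0.0038 over all genes. That count rested partly on single libraries: it was 54 with a median of −0.031 without knockout 1, 59 with a median of −0.041 without control 1, and 46 with a median of −0.017 without both. The quartiles of the members were −0.093 and −0.014, beside −0.086 and 0.11 over all genes. For 77 of the 83 the 95% interval of the log2 fold change stayed within 0.5 of 0, beside 63.8% of all genes, and only 4 members had a value beyond 0.25 in either direction, beside 19.8% of all genes. Those 4 were Cox4i2, Ndufa4l2, Ndufb4c and Cox6b2. In bulk skin, fewer cells of a type and less RNA per cell cannot be told apart.

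**Figure D1:**
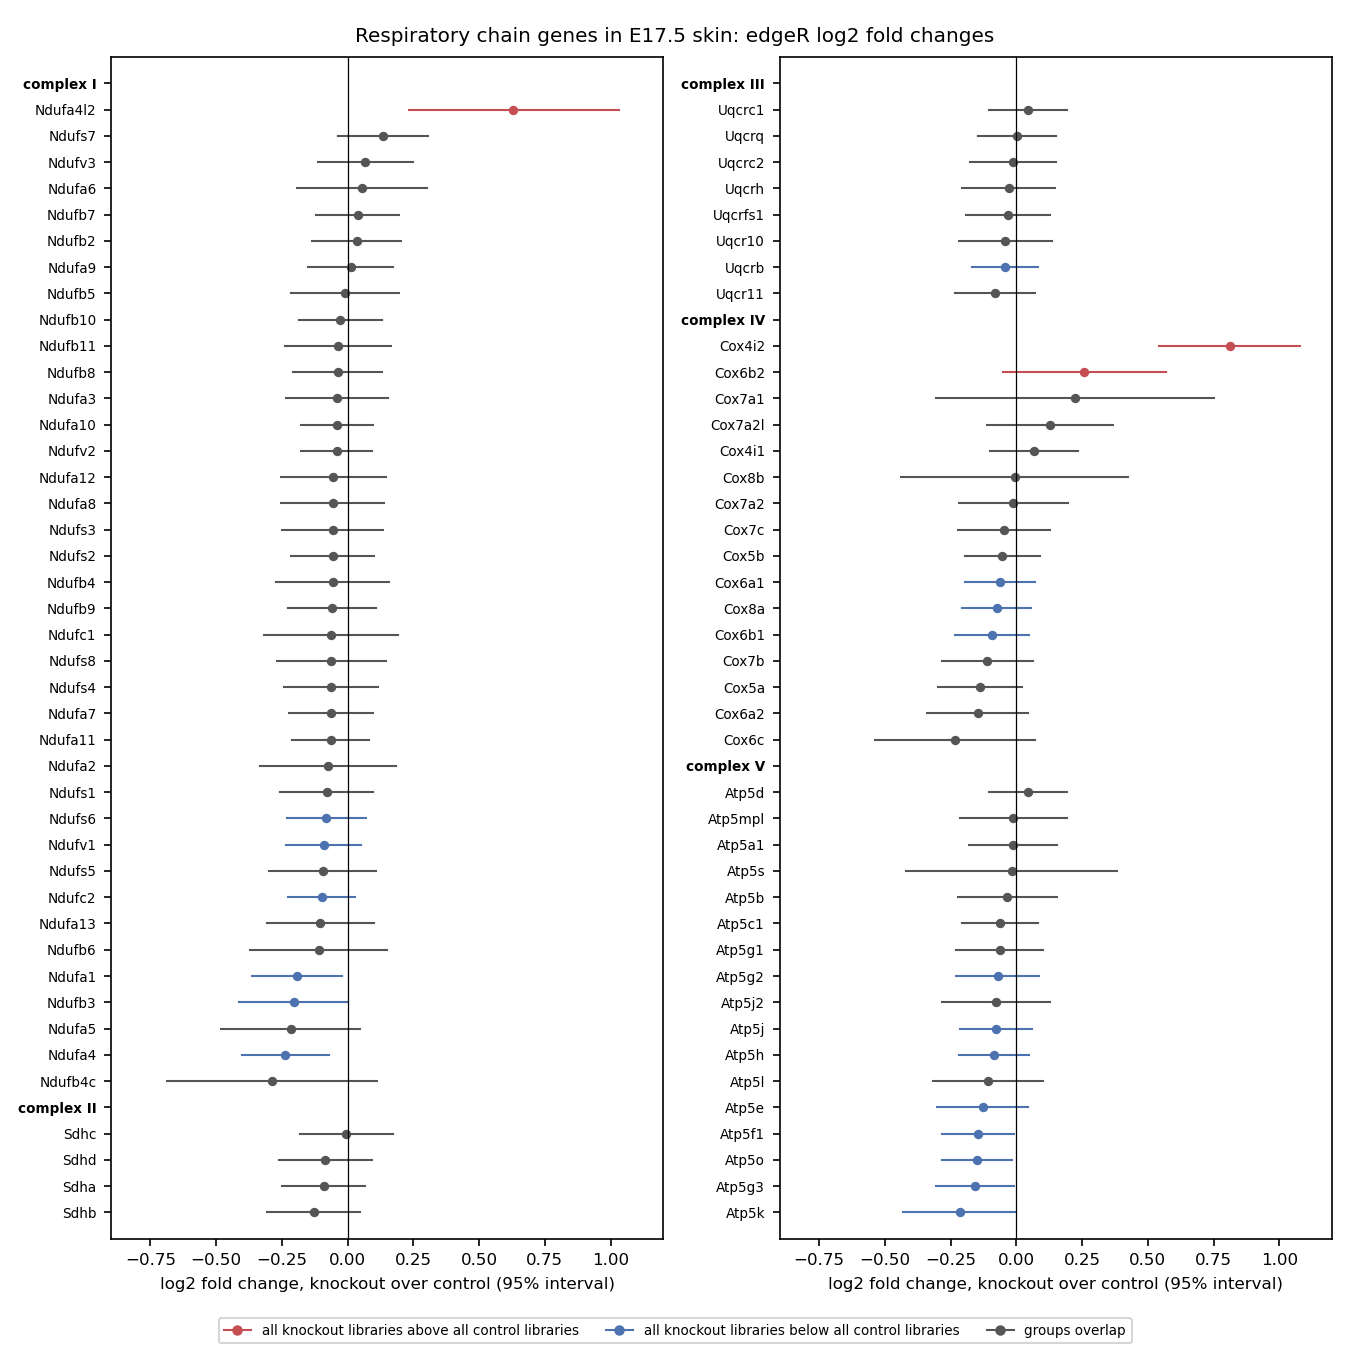
Log2 fold change, knockout over control, of the 83 respiratory chain genes tested, by complex, each point with its 95% interval from edgeR. Points in red have all 3 knockout libraries above all 3 control libraries and points in blue the opposite. Cox4i2 (0.81) and Ndufa4l2 (0.63) stand to the right of the other genes, most of which lie slightly left of 0.

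Cox4i2, the second form of complex IV subunit 4, which is best known from lung and from the mural cells of small vessels, had the smallest p of the group. The gene lies at chr2:152753916-152765039 (GRCm38.p6). Its level was 17.4, 16.2 and 17.5 CPM in the knockout libraries, against 10.9, 8.66 and 9.47 CPM in the control libraries. Every knockout library was above every control library, with little spread inside either group. The means were 17.0 ± 0.715 CPM in the knockout and 9.69 ± 1.16 CPM in the control (SD, n = 3 each), a log2 fold change of 0.81 (SE 0.11, 95% interval 0.54 to 1.08, edgeR adjusted p = 0.0615), which did not pass the threshold. Over 16 alternatives the log2 fold change ran from 0.73 to 0.91 and the adjusted p from 3.41e-05 to 0.304. There were 2 calls, by DESeq2 and without knockout 1 and control 1. Those fits called 210 and 139 genes in all, beside 24 in the main fit. Cox4i1, the usual subunit 4 and widely expressed counterpart of Cox4i2, was at 207, 234 and 236 CPM in the knockout libraries. It was at 216, 210 and 220 CPM in the control libraries. Those groups overlapped, and the log2 fold change was 0.067 (standard error 0.071, adjusted p = 0.864 by edgeR). Per kilobase of transcript Cox4i2 was at 23.2 CPM in the knockout and 13.2 CPM in the control, and Cox4i1 at 295 and 282 CPM in the same order, so that the second form stayed the minor one in both groups.

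Because estimated counts can share reads between similar genes, the coding sequences of both paralog pairs are shown where they are most alike. Taken from GENCODE vM21 transcripts (GRCm38), each stretch is 90 bases, printed 5′ to 3′, with capitals at the bases that differ between the genes of a pair. The Cox4 stretches end at the stop codon (coding bases 430 to 519 of Cox4i2, on chromosome 2, and 421 to 510 of Cox4i1, on chromosome 8).
Cox4i2: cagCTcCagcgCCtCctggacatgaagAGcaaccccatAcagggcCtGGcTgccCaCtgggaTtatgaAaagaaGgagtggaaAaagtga
Cox4i1: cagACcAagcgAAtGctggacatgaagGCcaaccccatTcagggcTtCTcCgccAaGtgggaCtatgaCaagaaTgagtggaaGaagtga
The Ndufa4 stretches lie inside the coding sequence (bases 121 to 210 of Ndufa4l2, on chromosome 10, and 106 to 195 of Ndufa4, on chromosome 6).
Ndufa4l2: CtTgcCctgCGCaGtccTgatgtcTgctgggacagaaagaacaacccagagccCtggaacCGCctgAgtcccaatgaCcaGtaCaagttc
Ndufa4: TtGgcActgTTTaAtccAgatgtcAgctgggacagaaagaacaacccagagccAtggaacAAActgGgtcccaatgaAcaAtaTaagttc
In these most similar stretches 19 of 90 bases differed between the Cox4 genes and 17 of 90 between the Ndufa4 genes. Over the whole coding sequence 69.2% of aligned bases were identical for the Cox4 genes and 68.6% for the Ndufa4 genes. The longest run that the full transcripts shared was 14 bases for Cox4i2 and Cox4i1 and 28 bases for Ndufa4l2 and Ndufa4. Estimated counts of Cox4i1, Ndufa4l2 and Ndufa4 were whole numbers in every library. Those of Cox4i2 were 338.35, 327 and 356.26 in the knockout libraries, against 221.93, 175 and 192 in the control libraries. Cox4i1 was whole where Cox4i2 was not, and the gene that shared reads with Cox4i2 was not identified.

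Ndufa4l2, a relative of Ndufa4 that is a known target of the hypoxia-inducible factors and, like Cox4i2, a marker of mural cells, was the other gene well above the rest. It lies at chr10:127509274-127517154 (GRCm38.p6). Its level was 438, 351 and 367 CPM in the knockout libraries, against 193, 257 and 297 CPM in the control libraries. The groups did not overlap, but both were spread widely, with knockout 1 the highest and control 1 the lowest of all 6. The means were 386 ± 46.1 CPM in the knockout and 249 ± 52.3 CPM in the control (SD, n = 3 each), a log2 fold change of 0.63 (SE 0.17, 95% interval 0.24 to 1.03, edgeR adjusted p = 0.372). DESeq2 called it (adjusted p = 0.0188, in a range of 0.0188 to 0.827 over 16 alternatives), and without knockout 1 and control 1 its log2 fold change was 0.38. Exons of Ndufa4l2 overlap those of Shmt2 on the opposite strand, and no source used here says whether counting was stranded. The estimated counts of Ndufa4l2 were whole numbers in every library, with no fraction of a read. How reads of the overlap were assigned was not tested. Shmt2, a mitochondrial serine hydroxymethyltransferase, had a log2 fold change of 0.15 (standard error 0.073, adjusted p = 0.689 by edgeR).

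Ndufa4 itself went the other way without passing the test. It was at 127, 144 and 145 CPM in the knockout libraries, against 160, 165 and 165 CPM in the control libraries. All 3 knockout libraries were below all 3 control libraries, with a log2 fold change of −0.24 (standard error 0.071, adjusted p = 0.442 by edgeR). Per kilobase of transcript Ndufa4l2 was at 413 CPM and Ndufa4 at 227 CPM in knockout skin, while in control skin both were at about the same level, 267 and 268 CPM.

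**Figure D2:**
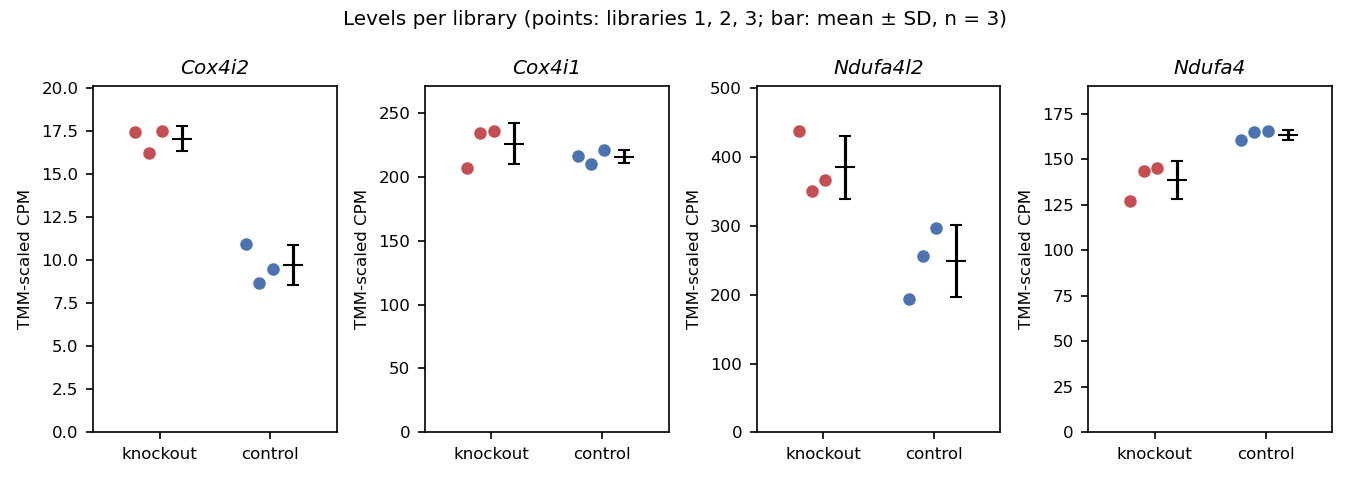
Level in TMM-scaled CPM of Cox4i2, Cox4i1, Ndufa4l2 and Ndufa4 in each knockout and control library (points, libraries 1, 2 and 3 from left to right in each group), with the mean and SD of 3 libraries beside them. Cox4i2 and Ndufa4l2 are higher in all 3 knockout libraries, Ndufa4 is lower in all 3, and the Cox4i1 groups overlap.

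Mural cell markers and hypoxia targets were measured beside these 2 genes. Of 10 mural markers other than the members, 1 was called higher by edgeR, beside 0.0865% of all genes. It was the receptor gene Pdgfrb (log2 fold change 0.67, standard error 0.072, adjusted p = 0.0330 by edgeR). Of the 10, 7 had a value above 0 and 3 below, beside 48.8% of all genes below 0. The summed level was 882 to 919 CPM in the knockout and 754 to 821 CPM in the control. The pericyte gene Higd1b was at 1.40, Abcc9 and Kcnj8, which form a pericyte potassium channel, at 0.47 and 0.41, and Rgs5 at 0.41. Notch3 and Cspg4 were at 0.22 and 0.064. The smooth muscle genes Myh11 and Cnn1 were at −0.82 and −1.37, but Acta2 was at −0.065. The groups overlapped for Kcnj8, Notch3, Cspg4 and Acta2, and apart from Pdgfrb none of these markers was called. The 12 listed hypoxia targets include genes of glycolysis and oxygen sensing. All 12 had a log2 fold change above 0, with a median of 0.38 beside 0.0038 over all genes. None was called by edgeR, 8 had an unadjusted p under 0.05 (all higher), DESeq2 called 5 and limma-voom 0, beside 0.160% of all genes called by edgeR, 4.08% higher at an unadjusted p under 0.05, 1.40% called by DESeq2 and 0.0998% by limma-voom. Among them Pgk1, a glycolytic enzyme, was at 0.53 (standard error 0.083, adjusted p = 0.0847 by edgeR), Pdk1, the kinase that shuts pyruvate out of the citric acid cycle, at 0.49 (standard error 0.082, adjusted p = 0.103 by edgeR), and Egln3, an oxygen-sensing prolyl hydroxylase, at 0.87 (standard error 0.21, adjusted p = 0.328 by edgeR). Summed, the 12 were at 3273, 2974 and 2869 CPM in the knockout libraries, against 2083, 2230 and 2484 CPM in the control libraries. Knockout 1 was the highest and control 1 the lowest. Without those libraries the log2 fold changes of Pgk1, Pdk1 and Egln3 were 0.42, 0.39 and 0.66, each the lowest of 16 alternatives. The part of the mural markers and hypoxia targets in the Cox4i2 and Ndufa4l2 values was not tested.

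The share of each paralog within its pair does not depend on library scaling. Ndufa4l2 made up 77.5, 71.0 and 71.7% of the reads of its pair in the knockout libraries, against 54.7, 60.9 and 64.3% in the control libraries. Cox4i2 made up 7.75, 6.47 and 6.91% in the knockout libraries, against 4.82, 3.96 and 4.12% in the control libraries. Both pairs were separated between the groups, with log2 ratios higher in the knockout by 0.89 (1.85-fold) for Ndufa4l2 over Ndufa4 and by 0.75 (1.69-fold) for Cox4i2 over Cox4i1 (two-sided exact permutation p = 0.1 for each, the smallest that 3 against 3 allows, and 0.25 adjusted over the 5 pairs compared). For the other 3 pairs the groups overlapped, with adjusted p = 0.25, 0.25 and 0.6 in the same exact permutation test for Cox6a, Cox7a and Cox8.

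Those 3 pairs set the muscle forms of complex IV subunits against their widely expressed counterparts. Cox6a2, the heart and skeletal muscle form of subunit 6A, was at 53.9, 53.8 and 59.9 CPM in the knockout libraries, against 66.0, 56.9 and 62.9 CPM in the control libraries (log2 fold change −0.15, standard error 0.081, adjusted p = 0.730 by edgeR). It supplied 24.6% of the reads of its pair in the knockout and 25.7% in the control, and the log2 ratio differed by −0.084 (exact permutation p = 0.2). Cox7a1, the form of heart, muscle and brown fat, was the least abundant member tested, at 1.65, 1.98 and 2.31 CPM in the knockout libraries, against 1.87, 1.49 and 1.73 CPM in the control libraries. Its ratio to Cox7a2 differed by 0.22 on the log2 scale (exact permutation p = 0.2). Cox8b, a form shared by muscle and brown fat, was at 6.17, 7.38 and 7.995 CPM in the knockout libraries, against 8.14, 5.59 and 7.95 CPM in the control libraries, and its ratio to Cox8a differed by 0.080 (exact permutation p = 0.6). The 12 skeletal muscle markers summed to 8735, 10230 and 14230 CPM in the knockout libraries, against 11250, 10850 and 11860 CPM in the control libraries, and 0 of them were called by edgeR (0 at an unadjusted p under 0.05). Brown fat markers summed to 74.4 to 81.7 CPM in the knockout and 81.2 to 87.4 CPM in the control, with 0 of 8 called (0 at an unadjusted p under 0.05) and the defining gene Ucp1 near 0, at 0.540 to 1.23 CPM and 0.395 to 0.792 CPM in the same order. Of 6 white fat markers tested 5 had a log2 fold change below 0 (beside 48.8% of all genes), and the median of the 6 was −0.56. An unadjusted p under 0.05 was found for 4, all lower (beside 3.35% of all genes), and 1 was called lower (beside 0.0732%). The called gene was Plin1, the lipid droplet coat protein perilipin, at −3.22 (standard error 0.37, adjusted p = 0.0353 by edgeR), and Adipoq, the hormone adiponectin, was at −3.88 and Pparg, the fat cell regulator, at −0.65, neither called. The 8 white fat markers listed summed to 250.6, 322 and 347 CPM in the knockout libraries, against 449.8, 363 and 435 CPM in the control libraries, which did not overlap. The part of muscle or fat cells in these values, or in the values of the other respiratory chain genes, was not tested. Cox6b2, a form of subunit 6B known from testis, was low but separated, at 6.02, 6.05 and 6.23 CPM in the knockout libraries, against 4.78, 4.90 and 5.63 CPM in the control libraries (log2 fold change 0.26, standard error 0.13, adjusted p = 0.710 by edgeR).

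**Figure D3:**
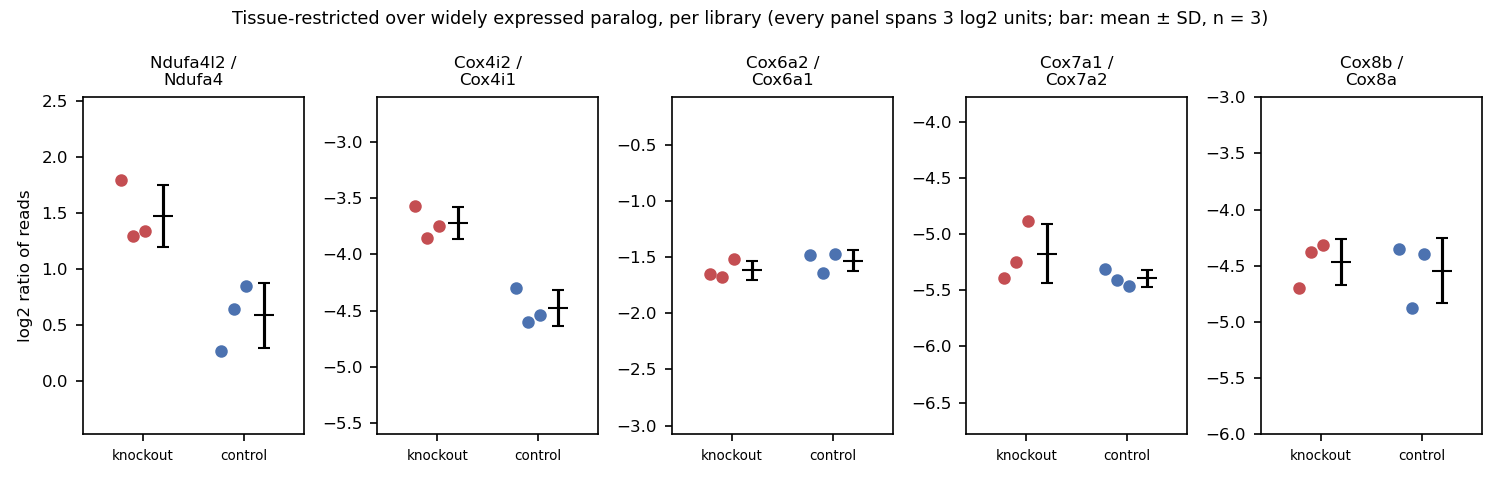
Log2 ratio of reads of the tissue-restricted gene over its widely expressed counterpart in each knockout and control library (points, libraries 1, 2 and 3 from left to right), with the mean and SD of 3 libraries beside them; every panel spans the same range. The Ndufa4 and Cox4 pairs are separated between the groups, and the Cox6a, Cox7a and Cox8 pairs overlap.

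In complex I, 31 of 38 tested genes had a log2 fold change below 0 and the median was −0.059. Ndufs1, the large iron-sulfur subunit, was at 74.0, 77.9 and 83.5 CPM in the knockout libraries, against 78.5, 89.1 and 81.4 CPM in the control libraries (log2 fold change −0.080, standard error 0.075, adjusted p = 0.838 by edgeR). Ndufv1, which binds NADH, was at 65.9, 71.5 and 71.6 CPM in the knockout libraries, against 74.3, 75.1 and 73.3 CPM in the control libraries (−0.091, standard error 0.061, adjusted p = 0.779 by edgeR). The Ndufs1 groups overlapped and the Ndufv1 groups just did not. Ndufa1, a small membrane subunit encoded on the X chromosome, was at 19.4, 20.4 and 20.4 CPM in the knockout libraries, against 23.2, 22.5 and 23.0 CPM in the control libraries, a clean separation with a log2 fold change of −0.19 (standard error 0.073, adjusted p = 0.597 by edgeR). Ndufb4c, a copy of Ndufb4 that shares reads with it, had the lowest log2 fold change of the whole group, −0.29, and is uncertain by itself.

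All 4 genes of complex II, which also runs as succinate dehydrogenase of the citric acid cycle, had log2 fold changes below 0 in the full data, but not without the libraries that stood apart. Without knockout 1 and control 1 Sdha was at −0.024, Sdhb at −0.039, Sdhc at 0.046 and Sdhd at 0.0036, and Sdhc was also above 0 without knockout 1 (0.018) or control 1 (0.023) alone. Sdha, the flavoprotein subunit, was at 150, 157 and 168 CPM in the knockout libraries, against 176, 165 and 164 CPM in the control libraries. Sdhb, the iron-sulfur subunit, was at 80.9, 89.7 and 90.1 CPM in the knockout libraries, against 100.4, 88.2 and 96.6 CPM in the control libraries. For both genes the groups overlapped, and log2 fold changes ran from −0.13 (Sdhb) to −0.0049 (Sdhc), with Sdhd, a membrane anchor, at −0.084 and edgeR adjusted p = 0.747 for Sdhb. Complex III had a median of −0.031 over 8 genes and a range of −0.083 (Uqcr11, a small subunit) to 0.045. Uqcrc1, a core protein, was at the top of it, at 207, 224 and 225 CPM in the knockout libraries, against 207, 217 and 212 CPM in the control libraries. Uqcrfs1, the Rieske iron-sulfur protein, had a log2 fold change of −0.032 (standard error 0.067, adjusted p = 0.938 by edgeR) and Uqcrb, a ubiquinone-binding subunit, of −0.044 (standard error 0.054, adjusted p = 0.889 by edgeR).

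Complex IV held Cox4i2 and otherwise lay near 0, with 11 of 16 tested genes below 0 and a median of −0.051. Cox6a1, Cox6b1 and Cox8a had every knockout library below every control library, beside 6.83% of all genes tested. Cox4i2 and Cox6b2 had every knockout library above, beside 7.00%. Cox5a, a matrix-side subunit, was at 76.8, 79.3 and 87.2 CPM in the knockout libraries, against 90.9, 91.2 and 85.9 CPM in the control libraries (log2 fold change −0.14, standard error 0.069, adjusted p = 0.705 by edgeR), so the groups overlapped through a single pair of libraries. Cox7a2l, which takes part in joining complexes III and IV, was at 0.13 and Cox6c at −0.23, neither called.

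In complex V 16 of 17 genes had a log2 fold change below 0, the median was −0.076 and 8 genes had every knockout library below every control library, which 6.83% of all genes tested also had. Atp5b, the beta subunit and the most abundant member, was at 1049, 1135 and 1207 CPM in the knockout libraries, against 1161, 1178 and 1135 CPM in the control libraries. Atp5a1, the alpha subunit, was at 740.4, 800.1 and 813 CPM in the knockout libraries, against 782, 799 and 796 CPM in the control libraries. Log2 fold changes were −0.035 for Atp5b (standard error 0.080, adjusted p = 0.942 by edgeR) and −0.014 for Atp5a1 (standard error 0.071, adjusted p = 0.976 by edgeR). The 8 separated genes were Atp5e, Atp5f1, Atp5g2, Atp5g3, Atp5h, Atp5j, Atp5k and Atp5o; the other 9 were not separated, Atp5c1, Atp5d, Atp5g1, Atp5j2, Atp5l, Atp5mpl and Atp5s among them. Atp5o, which ties the head to the peripheral stalk, was at 196, 206 and 203 CPM in the knockout libraries, against 227, 224 and 220.3 CPM in the control libraries (log2 fold change −0.15, standard error 0.057, adjusted p = 0.597 by edgeR). Atp5f1, the b subunit of the stalk, was at 207, 205 and 207 CPM in the knockout libraries, against 238, 225 and 223 CPM in the control libraries (−0.15, standard error 0.059, adjusted p = 0.629 by edgeR). Atp5g3, a gene of the membrane c ring, was at −0.16 (standard error 0.064, adjusted p = 0.642 by edgeR), beside −0.064 and −0.072 for Atp5g1 and Atp5g2, which encode the same mature protein.

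Over all complexes, 18 of the 83 genes had every knockout library below every control library, which is 21.7% beside 6.83% of all genes tested, and 3 had every knockout library above, which is 3.61% beside 7.00%. By complex the 18 genes were 6 in complex I, 0 in II, 1 in III, 3 in IV and 8 in V. Knockout 1 was the lowest library for 42 of the 83 genes and control 1 the highest for 34. In the knockout libraries the median deviation of the 83 genes from their own mean was −0.065, −0.014 and 0.0061 on the log2 scale. In the control libraries it was 0.063, 0.0021 and 0.031. Over all genes tested, with a small constant added to each CPM, the medians were −0.00705, 0.00472 and 0.000431 in the knockout libraries. They were −0.00471, 0.00155 and 0.00314 in the control libraries. Without knockout 1 and control 1, 24 of the 83 genes were separated downward (28.9% beside 21.1% of all genes) and 10 upward (beside 20.9% of all genes). This recount of separated genes was chosen after seeing the data. The same 2 libraries were the lowest of their groups for hair follicle markers (220.2, 341 and 397 CPM summed in the knockout libraries, against 192, 361 and 505 CPM in the control libraries), and control 1 was the highest for erythroid markers, at 16070 CPM beside 6663 to 8928 CPM in the other 5. The part of these differences in the respiratory chain values was not tested.

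**Figure D4:**
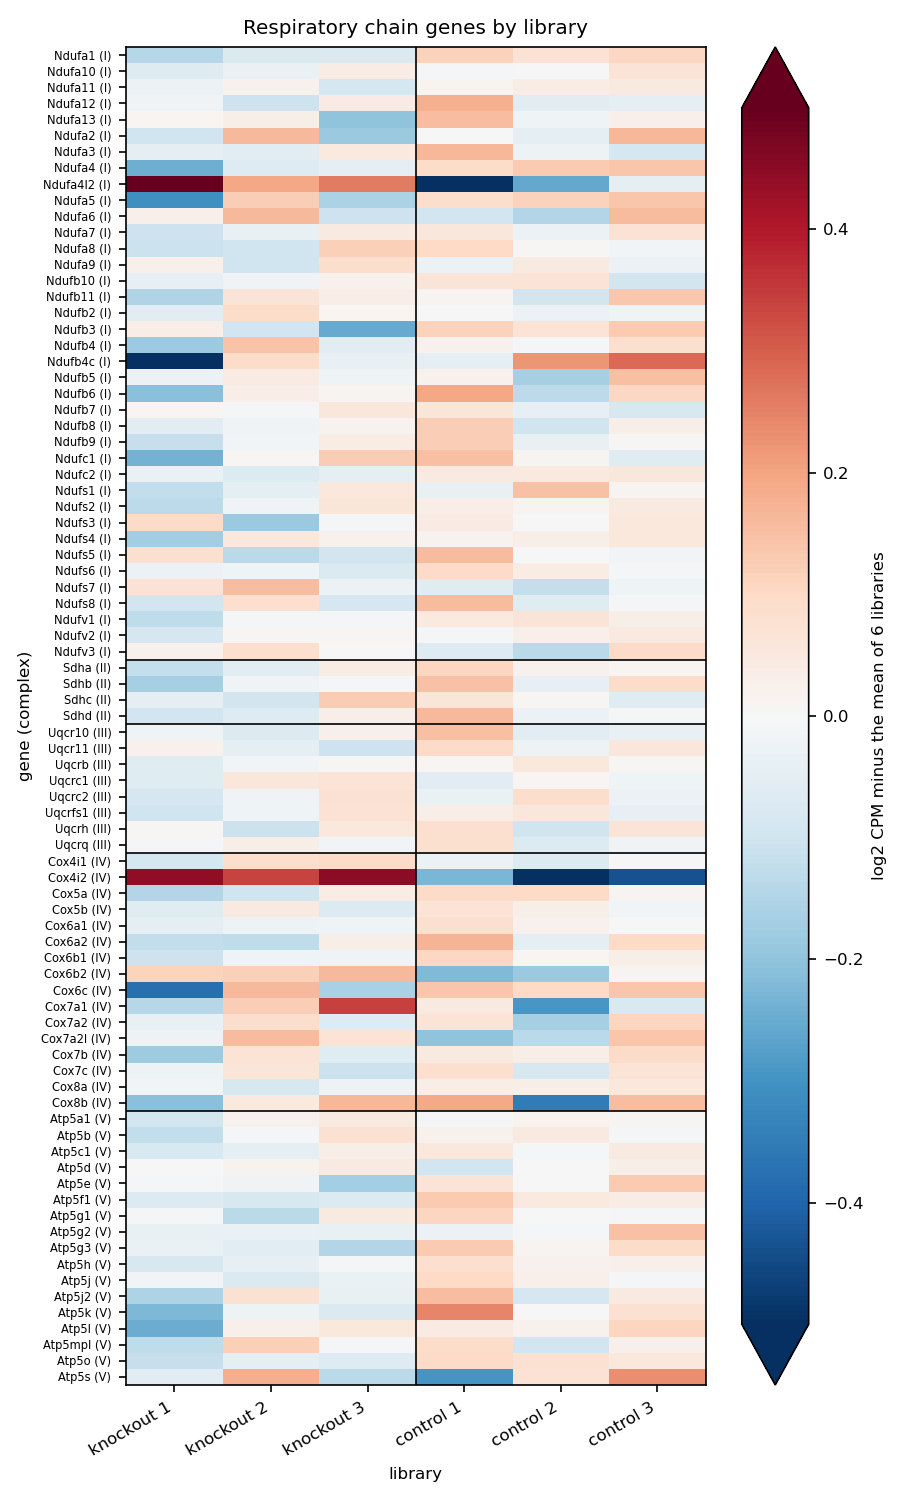
Log2 CPM of each of the 83 genes minus its mean over 6 libraries, with knockout libraries left and control libraries right, and genes ordered by complex. Knockout 1 is the lowest library for 42 genes and control 1 the highest for 34; Ndufa4l2 and Cox4i2 are red in every knockout library and blue in every control library.

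Summed over its members, each complex stayed within a few percent of control. Complex II summed to 415, 429 and 463 CPM in the knockout libraries, against 482, 446 and 448 CPM in the control libraries, a difference of means of −5.04% with overlapping groups. Complex V summed to 3809, 4018 and 4115.7 CPM in the knockout libraries, against 4166, 4116.4 and 4138 CPM in the control libraries, a difference of −3.85% with groups that just did not overlap. Complexes III and IV differed by −0.937% and −2.82%, with overlapping libraries. With Ndufa4 and Ndufa4l2 counted in complex IV its direction turned, to 0.048 on the log2 scale against −0.042 by gene name, and it was 0.030 as a mean over members. Complex I differed by 1.55% with Ndufa4l2 and by −4.28% without it. In the sum without it every knockout library (2100.2 to 2215 CPM) was below every control library (2221 to 2302 CPM). With Ndufa4 left out as well the difference was −3.44% and the groups overlapped. That sum was 1973.5 to 2071 CPM in the knockout and 2056.2 to 2141.8 CPM in the control. Ndufa4l2 alone supplied 386 of 2562 CPM in the knockout and 249 of 2523 CPM in the control. These differences changed with the libraries left out. Without knockout 1 they were −2.81% for complex II, 0.415% for III, −0.566% for IV, −1.77% for V and −2.61% for complex I without Ndufa4l2. Without control 1 complex II differed by −2.55%. Without both, in a recount chosen after seeing the data, complex II differed by −0.255%, III by 0.844%, V by −1.47% and complex I without Ndufa4l2 by −1.99%, while complex IV summed to 1583.8 CPM in either group. Leaving out another library moved some the other way, on the log2 scale to −0.12 for complex II and −0.036 for III without knockout 3 and to −0.071 for IV without knockout 2 and −0.064 without control 2. Complex I with Ndufa4l2, at 0.022 on that scale, was at 0.015, 0.0095 and 0.043 without control 1, 2 and 3 in turn. These sums are descriptions with no test.

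**Figure D5:**
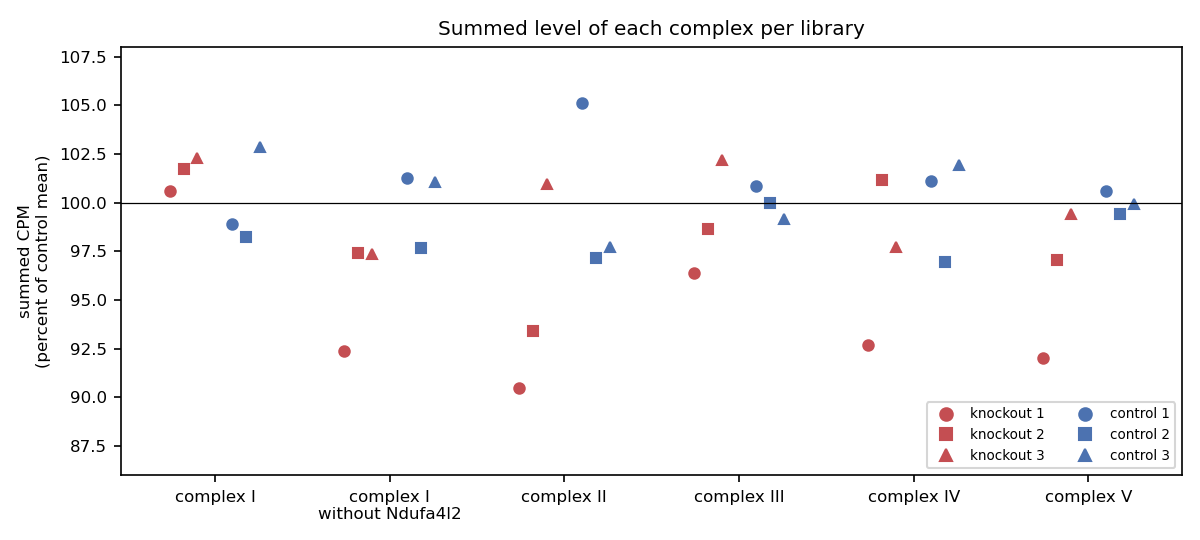
Summed CPM of the tested genes of each complex in each library, as a percent of the control mean of that complex, with knockout libraries left of control libraries; the axis does not start at 0. Knockout 1 is the lowest library for every complex except complex I with Ndufa4l2 included, and complex I differs from control by 1.55% with Ndufa4l2 and by −4.28% without it.

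Other genes were counted from 7 lists chosen by function, which held 133 tested genes besides the members. The lists include the hypoxia targets above, with genes such as the glycolytic Pgk1 and the oxygen-sensing Egln3. The edgeR test called 0 of the 133 and limma-voom called 0. An unadjusted p under 0.05 was found for 12 (10 higher and 2 lower), which is 9.02% beside 7.42% of all genes. Of those 12, 8 were hypoxia targets, and the others were Sco2, Ssbp1, Nrip1 and Pdhb. The 9.02% is therefore not a share of mitochondrial genes alone. DESeq2 called 5, all among the hypoxia targets, which is 3.76% beside 1.40% of all genes. Of 45 assembly factors 34 had a log2 fold change below 0, with a median of −0.057, and the lone value with an unadjusted p under 0.05 was that of Sco2, a copper chaperone of complex IV, at 0.33 (standard error 0.14, adjusted p = 0.668 by edgeR). The electron carrier cytochrome c gene Cycs was at −0.18, Cyc1, the cytochrome c1 subunit of complex III, at −0.12 and Gpd2, the mitochondrial glycerol phosphate dehydrogenase, at −0.23. The complex I assembly factors Ndufaf4 and Tmem126b were at −0.22 and −0.23. Among 18 genes that copy and express mitochondrial DNA the median was −0.057. Its packaging factor Tfam was at 28.9, 33.0 and 31.8 CPM in the knockout libraries, against 35.3, 33.9 and 35.5 CPM in the control libraries, and Ssbp1, which coats its single strands, at 25.5, 26.2 and 26.0 CPM in the knockout libraries, against 29.8, 29.5 and 28.4 CPM in the control libraries. Both were separated and not called (log2 fold changes −0.16 and −0.18, edgeR adjusted p = 0.685 and 0.597). Of 20 citric acid cycle and pyruvate dehydrogenase genes 16 were below 0 (median −0.069), among them Pdhb, of pyruvate dehydrogenase, at −0.17 and Idh3a at −0.19. Of 12 regulators of mitochondrial biogenesis 9 were above 0, with Nrip1, a corepressor of oxidative genes, at 0.21 (standard error 0.065, adjusted p = 0.449 by edgeR), and the nuclear receptors Ppara and Ppard at 0.35 and 0.19. Transport and dynamics genes had a median of −0.0049 over 17, with Timm23, an import channel, at −0.11, Slc25a4, the muscle adenine nucleotide carrier, at −0.087 and Opa1, which fuses inner membranes, at 0.065.

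What the members shared beyond their names was looked for in promoters. RefSeq windows (GRCm38.p6) of 250 bases before to 50 after a start site were found for 68 of the 85 genes, 73 windows in all, and not for Cox4i2, Cox4i1 or Ndufa4l2. The motif of NRF1, a factor known to drive nuclear respiratory genes, was searched on both strands as GCGCA, any base, then GCGC and lay in 18 of 73 windows (24.7%), beside 4.60% of all 32851 windows. The ETS motif CCGGAAG, bound by GABP, lay in 21.9% of the members' windows, beside 8.86% of all, and the YY1 motif AAGATGGCG in 9.59%, beside 1.40%. The hypoxia response core ACGTG lay in 26.0%, beside 19.6% of all windows. These motifs do not contain each other. The stretches of 60 bases printed here show the NRF1 motif (in capitals) of the 3 members with the smallest p whose motif lay before the start site and whose stretch lay outside the transcribed gene. They are upstream of Atp5k (chr5:108434415-108434474, minus strand), Ndufa5 (chr6:24527691-24527750, minus strand) and Atp5h (chr11:115420026-115420085, minus strand).
Atp5k: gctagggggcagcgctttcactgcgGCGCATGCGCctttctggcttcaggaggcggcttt
Ndufa5: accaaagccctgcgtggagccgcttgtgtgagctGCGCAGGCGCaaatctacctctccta
Atp5h: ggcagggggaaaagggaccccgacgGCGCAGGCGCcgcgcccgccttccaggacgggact
Atp5k, a small membrane subunit of complex V, had a log2 fold change of −0.22, Ndufa5 of −0.22 and Atp5h, of the peripheral stalk, of −0.086, none called by edgeR. A match is a description of the letters and not evidence of binding.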

How the data were processed

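Bulk RNA-seq of E17.5 mouse skin was used, 3 knockout and 3 control libraries, grouped by the labels. The deposited files hold 1 estimated count per gene and are not normalized, per the file headers; RSEM 1.2.12, HISAT2 2.0.4 and Bowtie2 2.2.5 are listed, per the submitters' processing notes, with the build GRCm38.p6 and no role for any tool; strandedness was not stated in those sources. Estimated counts were rounded, filtered with filterByExpr (minimum count 10), scaled by TMM and compared with the robust quasi-likelihood test of edgeR 4.0.16 (R 4.3.3), adjusted by Benjamini-Hochberg over 15035 genes; the test was checked on simulated data. DESeq2 1.42.0 and limma 3.58.1 (voom) were alternatives, as were RLE and upper-quartile scaling, other count filters, a fit without robust estimation, a replicate block, a skeletal muscle score as covariate, and fits without each library or without knockout 1 and control 1, which earlier results set apart. Levels are TMM-scaled CPM. The SE is the log2 fold change over the square root of F. Paralog ratios used counts plus 0.5. Transcript lengths are those of the GENCODE vM21 principal transcript. Named genes were the paralog pairs, other tissue-restricted members, core subunits, and the 3 smallest p of each complex and list, plus members printed for a separation or a sequence, chosen after their values were seen. Members and lists were chosen with earlier results of these data known. Exons of 23 members overlap those of another gene.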

Additional observations from a re-analysis of the deposited data

How the results depend on the processing

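The count of respiratory chain genes called higher, 0, became 2 with DESeq2 (Cox4i2 and Ndufa4l2) and 1 without knockout 1 and control 1 (Cox4i2). Over all genes DESeq2 called 210 of 15035 and the fit without knockout 1 and control 1 called 139 of 15066. The main fit called 24 of 15035. The count of respiratory chain genes called lower was 0 under all 16 alternatives run. The count called over the lists of mitochondrial genes and hypoxia targets, 0, became 5 with DESeq2, all of them hypoxia targets. It became 1 of the 133 listed genes without knockout 1 and control 1 (Pgk1, a hypoxia target), beside 139 of all 15066 genes in that fit. Complex I, at 0.022 on the log2 scale, became −0.0086 under upper-quartile scaling, −0.049 as a mean over members and −0.051 with the Ndufa4 genes counted in complex IV; complex IV, at −0.042, became 0.030 and 0.048 under the last 2 of these. The count separated upward, 3, was 10 without knockout 1 and control 1 and ran from 3 to 8 with 1 library left out, and that separated downward, 18, ran from 20 to 30 (30 without knockout 3), in comparisons with fewer libraries that were chosen after seeing the data. The share over all genes grew too, to 9.96 to 13.9% upward and 10.4 to 13.9% downward with 1 library left out (12.5% downward without knockout 3), beside 7.00% and 6.83% with all libraries. Without knockout 1 and control 1 the sign turned for Atp5a1 (0.017), Atp5b (0.018), Cox7a2 (0.035), Cox8b (0.18), Sdhd (0.0036) and Uqcrfs1 (0.017), none of them called in the full data. With 1 library left out Atp5a1 ran from −0.040 to 0.026, Atp5b from −0.084 to 0.016 and Uqcrfs1 from −0.078 to 0.0085 (each highest without knockout 1), Cox7a2 ran from −0.10 to 0.033 and Cox8b from −0.17 to 0.090. Cox8b was also above 0 with limma-voom (0.0068), a skeletal muscle score as covariate (0.021) and the replicate block (0.0020). The log2 difference of the Cox8b to Cox8a ratio ran from −0.089 (without control 2) to 0.20 (without knockout 1). The cause of these changes was not tested.

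The deviations of same-numbered libraries had correlations of 0.411, 0.0431 and 0.266 for numbers 1, 2 and 3. Knockout 1 correlated best with control 1 and knockout 3 with control 3, but knockout 2 also correlated best with control 3 (0.184). The labels name no pairs, so the main fit did not pair the samples by number. Whether the samples are pairs is not known. With the replicate block the fit called 0 respiratory chain genes and 52 genes in all, beside 24 without it. No gene of the mitochondrial genome matched, so scaling without such genes was not run.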
